A study of Monodelphis domestica with 5 samples.

Results

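H3K9me3, the trimethylation of lysine 9 of histone 3, was profiled across chromosomes 1 to 8 of the opossum, Monodelphis domestica, in cultured fibroblasts. The peaks described are the 81865 rows of the H3K9me3 list with a score of at least 50 on these chromosomes, out of 159734 deposited H3K9me3 peaks and 308249 peaks in the 4 lists of the series. MACS, the peak caller, compared each peak with the input library, and its p-value is deposited as a score on a scale of -10 log10, so a score of 50 is a p of 1e-05. Chromosome X and sequence not placed on a chromosome were left out, together with 222 and 5496 peaks that passed the same score, and 70394 peaks on chromosomes 1 to 8 fell below it. With X and unplaced sequence included, 87583 deposited H3K9me3 peaks reached a score of 50. The paper's supplement gives the same number, 159734, as its H3K9me3 count at a looser p of at most 0.001. The deposited list thus matches that looser call in number, and it was cut here at a score of 50. The paper's own count at a p of 1e-05 is lower than 87583. Whether the looser call accounts for the difference was not tested.

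The cells were primary fibroblasts grown from the ear of an adult F1 male, whose mother was of the LL1 and whose father was of the LL2 laboratory stock, at passages 4 to 6 per the labels. The passage limit stated in the paper is below the upper end of that range. Chromatin was digested with micrococcal nuclease without cross-linking, divided, and precipitated with antibodies against H3K9me3, H3K27me3 (both marks of repression, MORs), H3K4me3 and H3K9Ac (both marks of activation, MOAs), and input chromatin was kept untreated. There was 1 library of each, from a primary culture of 1 animal, so replicate error is unknown throughout and differences between marks carry no test. The labels state that chromatin of sisters was pooled, a step that the methods do not describe for this male. The lists hold no read counts, so the depth behind a peak is unknown.

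In mammals H3K9me3 is written by methyltransferases of the SUV39H and SETDB1 families and read by HP1 proteins, which compact chromatin. It is known for constitutive heterochromatin at centromeres and telomeres, for silenced transposable elements and, in eutherians, for clusters of zinc finger genes. H3K4me3 marks promoters and H3K9Ac marks active promoters and enhancers. Acetylation and trimethylation of lysine 9 cannot sit on the same histone tail. No genome sequence or gene annotation of MonDom5 was used, so peaks are given by position and no gene or repeat content is given for them.

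The surroundings of H3K9me3 peaks differed by score. Peaks with scores under 100 made up 69.7% of the list, lay a median of 184 kb from the nearest H3K4me3 peak, and were densest in stretches of several Mb that carried few or no MOAs. Peaks with scores of 200 and over made up 7.36% and lay a median of 9.30 kb from an H3K4me3 peak. Their coverage per 1 Mb bin had a Spearman's rho of 0.390 with H3K4me3 and 0.358 with H3K9Ac. The bounds of 100 and 200 were chosen after the values had been seen.

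The 81865 peaks covered 180 Mb, or 5.27% of a span of 3423 Mb, and none overlapped its neighbour. The span of a chromosome is taken up to the largest peak end in any of the 4 lists. At the same score and on the same chromosomes H3K4me3 covered 5.68%, H3K9Ac 3.797% and H3K27me3 0.308% of the span. The H3K9me3 list goes down to a p of 0.001, and the paper names no such looser call for the other marks. The effect of this on the comparison was not tested. H3K9me3 peaks were narrow for the most part. Their median width was 1926 bases, with 10% of peaks at or below 1383 bases and 10% at or above 3295 bases, and the range ran from 428 to 81084 bases. The median score was 76.6, the 90th percentile was 173 and the 99th percentile was 497. Only 4 peaks reached 3100, the highest score in the list, and these cannot be ranked against each other.

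Peaks close to the threshold were alike on either side of it. The 2392 peaks with scores from 50 to under 51 had a median width of 1444 bases and a median distance of 231 kb to the nearest H3K4me3 peak. The 2511 peaks just outside, with scores from 49 to under 50, had a median width of 1452 bases and a median distance of 215 kb.

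The density of peaks differed between chromosomes. Counting error with peaks taken as independent is the only error that could be given. Peaks were clustered, with 7 per 1 Mb bin at the 10th percentile and 55 at the 90th, so the intervals are too narrow to test differences. Chromosome 5 had the most, at 28.8 peaks per Mb (exact 95% Poisson interval 28.2 to 29.4), followed by chromosome 7 at 26.4 (25.8 to 27.02) and chromosome 3 at 26.0 (25.5 to 26.4). The intervals of chromosomes 7 and 3 overlap. Chromosomes 2 and 1 had 23.4 and 23.3 peaks per Mb, and chromosome 4 had 22.2. The lowest densities were 21.2 per Mb on chromosome 8 (20.7 to 21.7) and 21.0 per Mb on chromosome 6 (20.5 to 21.6), whose intervals also overlap. The covered share followed nearly the same order, from 6.28% of chromosome 5 to 4.50% of chromosome 6.

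Chromosomes 5 and 7 stood out by their weak peaks. Peaks with scores under 100 ran at 21.1 per Mb on chromosome 5 and 19.5 on chromosome 7, against 14.4 to 18.2 on the other six. Peaks with scores of 200 and over went the other way for chromosome 7, which had the fewest, 1.37 per Mb, whereas chromosome 3 had the most, 1.91 per Mb. The MOAs were sparsest where weak H3K9me3 peaks were densest. H3K4me3 had 17.7 peaks per Mb on chromosome 5 and 18.3 on chromosome 7, against 21.6 to 23.8 elsewhere. H3K9Ac had 11.9 and 11.5 peaks per Mb there, against 14.4 to 16.4 elsewhere. Median peak width hardly varied, from 1903 bases on chromosome 8 to 1942 on chromosomes 3 and 5.

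**Figure D1:**
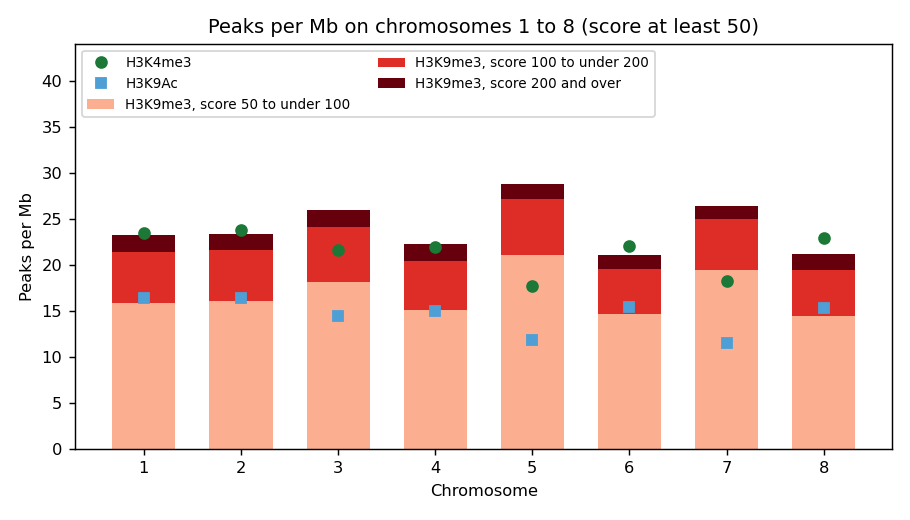
Peaks per Mb (y axis) on each of chromosomes 1 to 8 (x axis) at a score of at least 50; stacked bars split H3K9me3 by score class, and points give H3K4me3 (circles) and H3K9Ac (squares). The tallest bar is chromosome 5, at 28.8 peaks per Mb, where the H3K4me3 point is lowest, at 17.7.

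Spacing between neighbouring peaks was broad and skewed. The median gap from the end of a peak to the start of the next was 13.2 kb, while the mean was 39.6 kb, so the median was 0.332 of the mean. The quartiles were 3.93 and 39.7 kb. Gaps of at most 1000 bases made up 10.3%, gaps of at most 10 kb 43.7%, and gaps of at most 100 kb 89.5%. Of the 81857 gaps, 99.6% were at most 500 kb. Median gaps were shortest on chromosomes 7 and 5, both 11.3 kb, and longest on chromosome 6, at 15.3 kb.

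**Figure D2:**
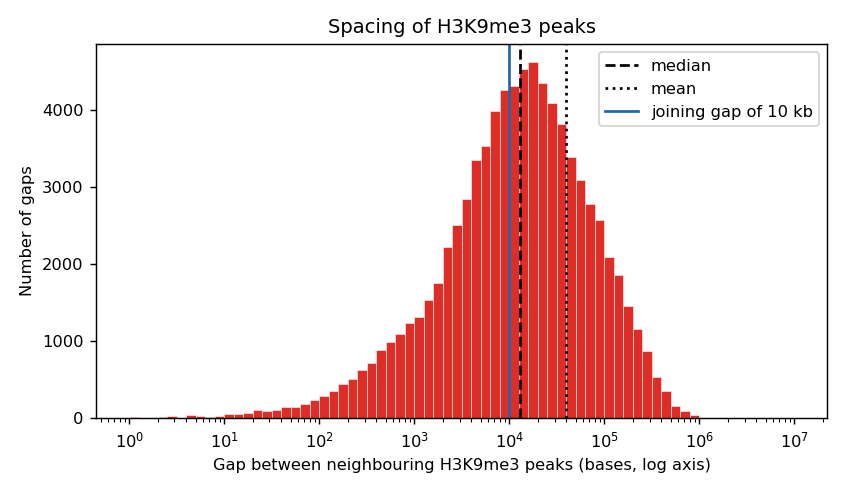
Histogram of the gaps between neighbouring H3K9me3 peaks (x axis, bases on a log axis; y axis, number of gaps), with lines at the median, the mean and the joining gap of 10 kb. The mode lies just above the median of 13.2 kb, the mean of 39.6 kb is far to its right, and a long left tail holds neighbours separated by less than 1000 bases.

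The 7 largest gaps each held a long stretch in which the other marks were missing too. The 5 largest lay on chromosome 1 from 288442579 to 291737694 (3.30 Mb), chromosome 5 from 35008372 to 38276467 (3.27 Mb), chromosome 6 from 73646516 to 76847841 (3.20 Mb), chromosome 4 from 50627739 to 53706459 (3.08 Mb) and chromosome 7 from 42464375 to 45503574 (3.04 Mb). Gaps of 3.02 Mb on chromosome 3 and 3.01 Mb on chromosome 2 followed, and the next in order was 1.58 Mb. Each of these 7 gaps contained a stretch of more than 3 Mb, and up to 3.06 Mb, without a peak in any of the 4 lists. Outside that stretch, a gap held up to 10 H3K4me3, 4 H3K9Ac and 1 H3K27me3 peaks of any score, as on chromosome 6. On chromosome 8 no list had a peak before base 3017501. Whether these stretches hold assembled sequence was not tested.

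H3K9me3 beside these empty stretches was high on 1 side in 2 cases. On chromosome 3 the 1 Mb after the stretch had 269 kb covered and the 1 Mb before it 56.5 kb. On chromosome 4 the order was opposite, with 292 kb before and 16.6 kb after. The remaining flanks ranged from 16.6 to 103 kb, beside a median of 34.9 kb over all 1 Mb bins. The H3K4me3 coverage in the 269 kb flank was 0 kb, whereas in the 292 kb flank it was 20.2 kb.

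Peaks were joined into chains where the gap was at most 10 kb, and chains of at least 5 peaks were called clusters. Of the 46113 chains, 29513 were single peaks, and these made up 36.1% of all peaks. The 2484 clusters held 17457 peaks (21.3%) on 2.83% of the span. This share rests on the settings, as it was 6.52% with a joining gap of 5 kb, 43.4% with 20 kb and 2.15% for peaks with scores of at least 100. They were most frequent on chromosome 7, where 26.0% of peaks were in clusters, and least on chromosome 8, at 16.8%. Clustering went with distance from the MOAs. Single peaks lay a median of 28.8 kb from the nearest H3K4me3 peak, peaks in chains of 3 or 4 a median of 212 kb, and peaks in chains of 10 to 19 a median of 683 kb. The share of peaks that overlapped an H3K4me3 peak fell over the same classes from 5.20% of single peaks to 2.66% and 1.04%. Of the 2484 clusters, 1913 (77.0%) had no H3K4me3 peak within 100 kb, and 152 (6.12%) contained a peak that overlapped one. For comparison, sequence 100 to 500 kb from H3K4me3 was 17.5% of the span and held 23.1% of all H3K9me3 bases. Sequence beyond 500 kb was 9.83% of the span and held 26.1%. Of all H3K9me3 peaks 3.55% overlapped H3K4me3, but a cluster counts once for at least 5 peaks, so the shares differ in unit.

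Scores did not move one way with the size of the chain. The median score was 77.6 for single peaks, 75.1 for peaks in chains of 5 to 9 and 74.99 in chains of 10 to 19, and the share of peaks with scores of 200 and over fell from 8.27% to 5.19% and 4.25%. The 19 chains of 20 or more peaks had a higher median score, 83.3, and a higher share, 11.9% of their 453 peaks. The strongest peaks were often clustered, with 40.5% of those with scores of 1000 and over in clusters and 18.3% single, against 14.2% to 22.7% in clusters in the lower score classes. Coverage inside clusters was incomplete, with a median of 42.2% in chains of 5 to 9 and 44.2% in chains of 20 or more.

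The 5 clusters with the most peaks differed in their make-up. The first had 31 peaks on chromosome 4 from 199376111 to 199552208, scores from 51.5 to 273 and 40.4% of its 176 kb covered, and lay 16.0 kb from the nearest H3K4me3 peak. The second had 30 peaks on chromosome 8 from 79461375 to 79720649, with 78.2% of 259 kb covered and a highest score of 1698, and lay 357 kb from H3K4me3. The third had 29 peaks on chromosome 4 from 50309856 to 50558319, with 81.7% of 248 kb covered and a highest score of 1868. It lay within the 1 Mb before the empty stretch of chromosome 4. Of its peaks, 4 overlapped H3K4me3 and 9 overlapped H3K27me3. Clusters of 26 peaks lay on chromosome 3 from 202226734 to 202360328 and on chromosome 5 from 160704879 to 160847700. Their highest scores were only 259 and 215, their coverage was 43.2% and 44.7%, and the nearest H3K4me3 peaks were 1487 and 2485 kb away. The clusters on chromosomes 8 and 4 with scores over 1000 were thus mostly covered, while the others were series of separate weak peaks.

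Width and score rose together. Spearman's rho over the 81865 peaks was 0.706, from 0.692 to 0.722 within single chromosomes, given as a description, since both numbers come from the same reads of 1 library and a longer region can reach a lower p. The median width rose in each step over 10 equal groups of peaks ordered by score, from 1464 bases in the lowest (median score 51.7) to 3490 bases in the highest (median score 242). Wide peaks were rare, with 1556 peaks (1.90%) of 5 kb or more and 161 of 10 kb or more. The 161 had a median score of 728, but 16 of them scored under 200, so that a wide peak was not always a strong one.

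The 5 highest scores were in wide peaks, and all 5 peaks overlapped an H3K4me3 peak. The 4 peaks at 3100 lay on chromosome 1 from 333174971 to 333256054 (81.1 kb wide), chromosome 3 from 501649356 to 501669561 (20.2 kb), chromosome 4 from 403109337 to 403124854 (15.5 kb) and chromosome 4 from 409596952 to 409609726 (12.8 kb). The next peak, with a score of 2737, lay on chromosome 4 from 49482985 to 49526209 (43.2 kb). Only the peak on chromosome 1 also overlapped H3K9Ac, and H3K9Ac was 8.13 to 127 kb away from the other four. H3K27me3 overlapped the peaks on chromosomes 1 and 3.

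The 5 widest peaks included 3 that did not share their place among the highest scores. The widest was the 81.1 kb peak on chromosome 1. A peak of 80.2 kb on chromosome 8 from 35601725 to 35681885 had a score of only 247 and lay 23 bases from an H3K4me3 peak without touching it. Peaks of 56.3 kb (229833575 to 229889881) and 52.6 kb (229954471 to 230007087) on chromosome 1, with scores of 1529 and 1284, belonged to a single cluster of 13 peaks from 229780383 to 230068660. That cluster was the longest of all, at 288 kb, and 93.7% of it was covered. The 43.2 kb peak on chromosome 4 completed the 5.

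Coverage was then counted in 3419 complete bins of 1 Mb. A bin had a median of 34.9 kb covered by H3K9me3, with quartiles of 22.1 and 59.97 kb and a maximum of 397 kb. H3K9me3 was concentrated, as the richest 342 bins, or 10%, held 34.1% of the covered bases, each with at least 123 kb. Bins next to each other were alike. Spearman's rho between the coverage of neighbouring bins was 0.407, and fell to 0.214 for bins 2 apart, 0.0838 for bins 5 apart and 0.0174 for bins 20 apart. The likeness of neighbours was greater for peaks with scores under 100 (0.435) than for those of 200 and over (0.238). The former are 57028 peaks and miss 21 bins, while the latter are 6022 peaks and miss 1268, so the 2 values are not directly comparable. These values describe bins that share libraries, mappability and base composition.

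The 5 bins with the most H3K9me3 were of mixed kinds. The first, on chromosome 3 from 481000001 to 482000000, had 397 kb covered by 73 peaks, and 43.9% of this coverage came from peaks with scores of 200 and over. The second, on chromosome 8 from 79000001 to 80000000, had 389 kb covered by 106 peaks. The third, on chromosome 5 from 160000001 to 161000000, had 339 kb covered by 140 peaks, but only 4.57% of it came from peaks of 200 and over, and it held no MOA peak. The last 2 were on chromosome 3 from 501000001 to 502000000 (333 kb) and chromosome 1 from 745000001 to 746000000 (327 kb). Peaks of 200 and over gave 51.4% and 58.9% of their coverage, and the bins also held 77.6 and 77.1 kb of H3K4me3.

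At the other end, 18 bins had no H3K9me3 peak. In 17 of them there was no peak of either MOA, and these were the 14 bins within the empty stretches of chromosomes 1 to 7 and the first 3 bins of chromosome 8. By the order of chromosomes the first 5 were 289000001 to 290000000 and 290000001 to 291000000 on chromosome 1, 247000001 to 248000000 and 248000001 to 249000000 on chromosome 2, and 57000001 to 58000000 on chromosome 3. The remaining bin, on chromosome 4 from 395000001 to 396000000, had 21.5 kb of H3K4me3 and 12.8 kb of H3K9Ac. It was the only bin with an MOA and without H3K9me3.

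H3K9me3 and the MOAs were related in a way that a single correlation does not carry. Over the 3419 bins, Spearman's rho between H3K9me3 and H3K4me3 coverage was -0.320 (Pearson's r -0.345), and between H3K9me3 and H3K9Ac it was -0.346 (r -0.349). Within single chromosomes rho with H3K4me3 ran from -0.182 on chromosome 8 to -0.504 on chromosome 5, negative on all 8. The MOAs themselves had a rho of 0.971 with each other, so these 2 relations are nearly one. All lists were called against the same input and the bins share mappability, so the values are descriptions.

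Ordered by H3K9me3, the bins showed a broad plateau and then a drop. The bins were divided into 10 equal groups, from group 1 with the least to group 10 with the most. H3K4me3 covered a median of 43.6 kb in group 1, 67.9 kb in group 6 and still 49.7 kb in group 8, then 8.76 kb in group 9 and 0 kb in group 10. The median H3K4me3 coverage was higher at each step from group 1 to group 6. H3K9Ac took a like course, from 30.005 kb in group 1 through a highest median of 46.3 kb in group 4 to 28.9, 4.51 and 0 kb in groups 8 to 10. Bins without either MOA made up 57.3% of group 10, 18.1% of group 9 and at most 4.99% of any other.

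**Figure D3:**
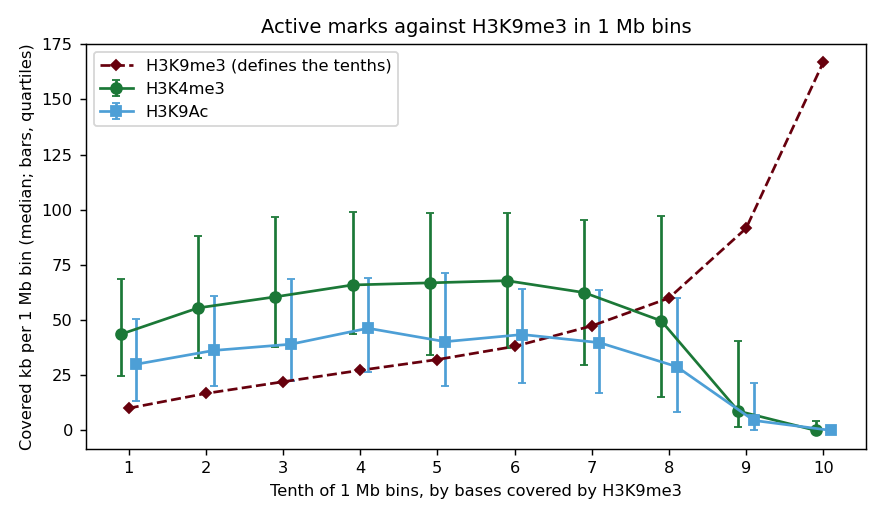
Median kb per 1 Mb bin covered by H3K4me3 and H3K9Ac (y axis; bars, quartiles) in 10 equal groups of the 3419 bins ordered by H3K9me3 coverage (x axis), with the median of H3K9me3 itself as a dashed line. H3K4me3 is highest in group 6 and H3K9Ac in group 4, and both are at 0 kb in group 10, where the median H3K9me3 coverage is 167 kb.

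Seen from the MOAs, the 319 bins without a peak of either were 9.33% of all bins and held 24.1% of the bases covered by H3K9me3. Their median H3K9me3 coverage was 140 kb, with quartiles of 95.1 and 181 kb, against 32.8 kb (21.2 and 51.7 kb) in the other 3100 bins. Of the 319, the 17 in group 1 are the bins of the stretches with no peak of any list, where the presence of assembled sequence was not tested. Groups 2 to 5, with at most 34.9 kb of H3K9me3, held 1, 3, 3 and 4 of the bins without MOAs.

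Among bins with at least 10 kb of H3K4me3 the scores changed with the amount of H3K4me3, and the H3K9me3 coverage hardly did. Bins with 10 to 50 kb, 50 to 100 kb and over 100 kb of H3K4me3 had nearly equal medians of 30.6, 30.1 and 32.7 kb of H3K9me3, and 15 peaks each. The share of peaks with scores of 200 and over rose across these 3 classes from 6.39% to 14.5% and 17.4%, and was 1.27% in bins without H3K4me3. The mean coverage by such strong peaks rose from 5.37 kb to 10.8 kb, while the mean coverage by peaks under 100 fell from 23.5 to 14.3 kb. Peak width stayed between 1872 and 1986 bases in the median over all classes. The median gap between peaks rose from 6.90 kb in bins without H3K4me3 to 26.5 kb in those with over 100 kb.

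The sign of the relation turned with the score of the H3K9me3 peaks. Coverage by peaks with scores under 100 had a rho of -0.511 with H3K4me3 and -0.522 with H3K9Ac. For scores of 100 to under 200 the values were -0.186 and -0.211, and for scores of 200 and over they were 0.390 and 0.358. Every chromosome showed the same signs at both ends, with rho to H3K4me3 from -0.650 to -0.411 for the weak peaks and from 0.316 to 0.461 for the strong ones. The strong peaks are fewer, 6022 against 57028, and 1268 bins held none of them. Among the strong peaks rho with H3K4me3 did not go on rising with score. It was 0.365 for 200 to under 500, 0.252 for 500 to under 1000 and 0.0501 for the 126 peaks of 1000 and over.

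Distances to single MOA peaks were for the most part shorter at higher scores. The median distance from an H3K9me3 peak to the nearest H3K4me3 peak was 219 kb for scores of 50 to under 60, 184 kb for 60 to under 80, 123 kb for 80 to under 100 and 47.6 kb for 100 to under 150. It went on to 18.96 kb for 150 to under 200, 10.2 kb for 200 to under 500 and 5.75 kb for 500 to under 1000. Above 1000 the median was 0 kb, meaning overlap. The nearest H3K9Ac peak was farther in each class, from 338 kb in the lowest to 13.0 kb for 500 to under 1000, and was 16.3 kb above 1000.

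Wider peaks reach farther, so peaks of equal width, from 2 kb to under 3 kb, were compared as well. Among these the median distance to H3K4me3 was 318 kb for scores of 50 to under 60 (1671 peaks), 55.8 kb for 100 to under 150 (6800 peaks) and 8.53 kb for 200 to under 500 (1617 peaks). The share that overlapped H3K4me3 rose over the same classes from 0.419% to 3.84% and 11.4%.

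Overlap with other marks rose with score to unequal heights. In all, 2907 H3K9me3 peaks (3.55%) had 1 or more bases in common with H3K4me3, 1050 (1.28%) with H3K9Ac and 1946 (2.38%) with H3K27me3. For H3K4me3 the share was 1.84% at scores of 50 to under 60, 10.4% at 200 to under 500, 24.0% at 500 to under 1000 and 69.0% of the 126 peaks of 1000 and over (87 peaks, exact 95% binomial interval 60.2% to 77.0%). The share for H3K9Ac went only from 0.756% to 5.56% (7 of 126). For H3K27me3, the other MOR, it went from 0.852% to 25.4% (32 of 126). Counted by the midpoint of the H3K9me3 peak alone, which does not depend on width, the shares of the 126 were 45.2% for H3K4me3, 0.794% for H3K9Ac and 16.7% for H3K27me3. Midpoint shares for H3K4me3 were 1.13% at scores of 50 to under 60, 4.62% at 200 to under 500 and 12.4% at 500 to under 1000. By comparison, H3K4me3 peaks covered 5.68% of the span, H3K9Ac peaks 3.797% and H3K27me3 peaks 0.308%. By midpoint, only the classes from 500 up were thus above the span share of H3K4me3.

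**Figure D4:**
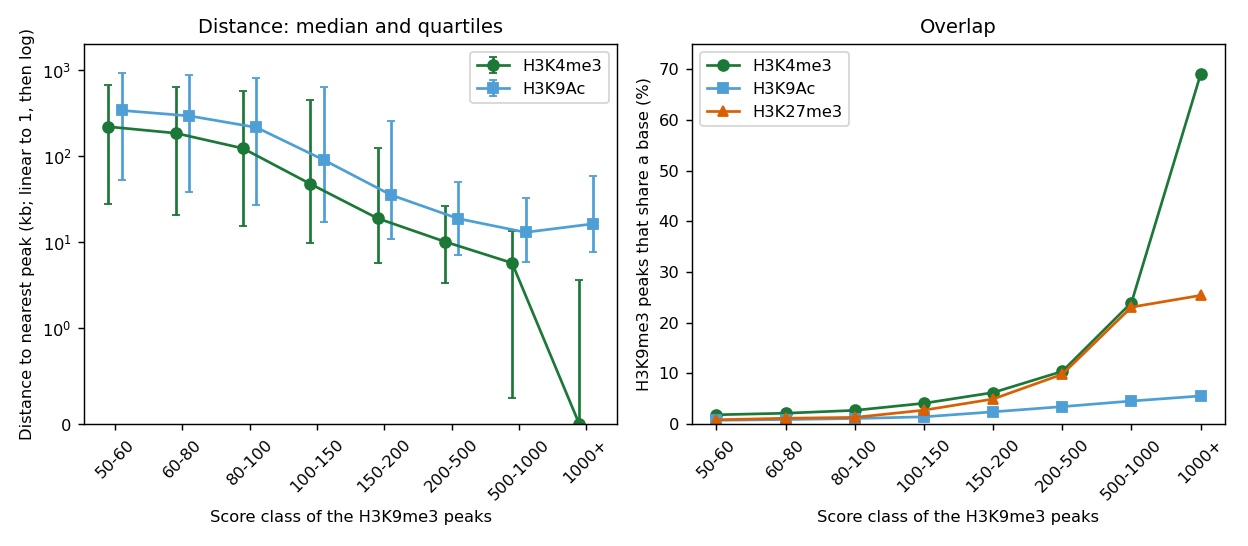
H3K9me3 peaks in 8 score classes (x axis): left, median distance with quartiles to the nearest H3K4me3 and H3K9Ac peak (kb, linear to 1 and log above); right, percentage of peaks that share a base with H3K4me3, H3K9Ac or H3K27me3. Distances fall from 219 and 338 kb to 0 and 16.3 kb, and overlap with H3K4me3 reaches 69.0% while overlap with H3K9Ac stays at or below 5.56%.

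The coverage of the sequence around H3K4me3 peaks showed where each kind of peak sat. Peaks with scores under 100 covered 0.585% of the bases inside H3K4me3 peaks, 1.42% of those 1 to 5 kb away, 1.95% of those 20 to 100 kb away and 9.86% of those more than 500 kb away. Peaks of 200 and over were most frequent at 5 to 20 kb, where they covered 1.22% of the bases, against 0.772% inside H3K4me3 peaks, 0.350% at 100 to 500 kb and 0.451% beyond 500 kb. The sequence within 5 to 20 kb of H3K4me3 was 23.0% of the span but held 38.0% of the bases of strong peaks. The sequence beyond 500 kb was 9.83% of the span and held 31.9% of the bases of weak peaks and 5.98% of those of strong ones. Around H3K9Ac the strong peaks were likewise most frequent at 5 to 20 kb, at 1.32%, and covered only 0.179% of the bases inside H3K9Ac peaks.

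Rich bins with many MOAs were few but distinct. Of the 342 richest bins, 28 (8.19%) held at least 50 kb of H3K4me3, as 49.1% of all bins did. Their H3K9me3 came for the most part from strong peaks, with a median of 54.9% of the coverage from scores of 200 and over and 16.5 such peaks per bin. In the 196 rich bins without MOAs these values were 3.10% and 1. The amounts of H3K9me3 were alike, 179 and 168 kb in the median. H3K27me3 covered a median of 15.3 kb in the 28 bins and 0 kb in the 196, against 1.45 kb over all bins. Among the 28, chosen after their values were seen, 3 bins in a row on chromosome 3 from 500000001 to 503000000 had 270, 333 and 275 kb of H3K9me3 beside 76.3, 77.6 and 58.7 kb of H3K4me3.

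The rich bins formed 167 runs of adjacent bins, of which 92 were a single bin and 24 were of 4 bins or more. The runs were described after their values had been seen. Chromosome 5 had the largest share of its bins among the richest, 14.5%, followed by chromosome 3 with 13.9% and chromosome 7 with 13.5%, and the remaining chromosomes had 6.41% to 8.74%. The longest run was 19 bins on chromosome 3, from 118000001 to 137000000, with 129 to 240 kb per bin and a median of 163 kb. It held 1506 H3K9me3 peaks with a median score of 68.9 and a highest score of 274, and only 14 of them scored 200 or more. In its 19 Mb there was 1 H3K4me3 peak, no H3K9Ac peak and no H3K27me3 peak at a score of 50. The 5 bins before it had a median of 27.05 kb of H3K9me3 and 42.8 kb of H3K4me3, and the 5 bins after it 45.4 and 17.4 kb.

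The second run was 13 bins on chromosome 7, from 109000001 to 122000000, with a median of 195 kb per bin and 20.8% of the sequence covered. It held 1204 H3K9me3 peaks with a median score of 72.9, beside 6 H3K4me3 and 3 H3K9Ac peaks. Its sides differed, with a median of 37.9 kb of H3K9me3 in the 5 bins before it and 189.9 kb in the 5 bins after it, where the median H3K4me3 coverage was 0 kb.

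The MOAs were not missing from every long run. Of the 24 runs of 4 bins or more, 4 had no H3K4me3 and no H3K9Ac peak, and 22 had at most 21 H3K4me3 peaks and median H3K9me3 scores of 68.4 to 75.8. The other 2 were of another make-up. A run of 5 bins on chromosome 4, from 401000001 to 406000000, held 143 H3K4me3 and 75 H3K9Ac peaks, and 104 of its 286 H3K9me3 peaks scored 200 or more. A run of 4 bins on chromosome 3, from 500000001 to 504000000, which takes in the 3 rich bins given above, held 126 H3K4me3 and 54 H3K9Ac peaks, and 102 of its 318 H3K9me3 peaks scored 200 or more. The median H3K9me3 scores of these 2 runs were 126.2 and 125.6.

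**Figure D5:**
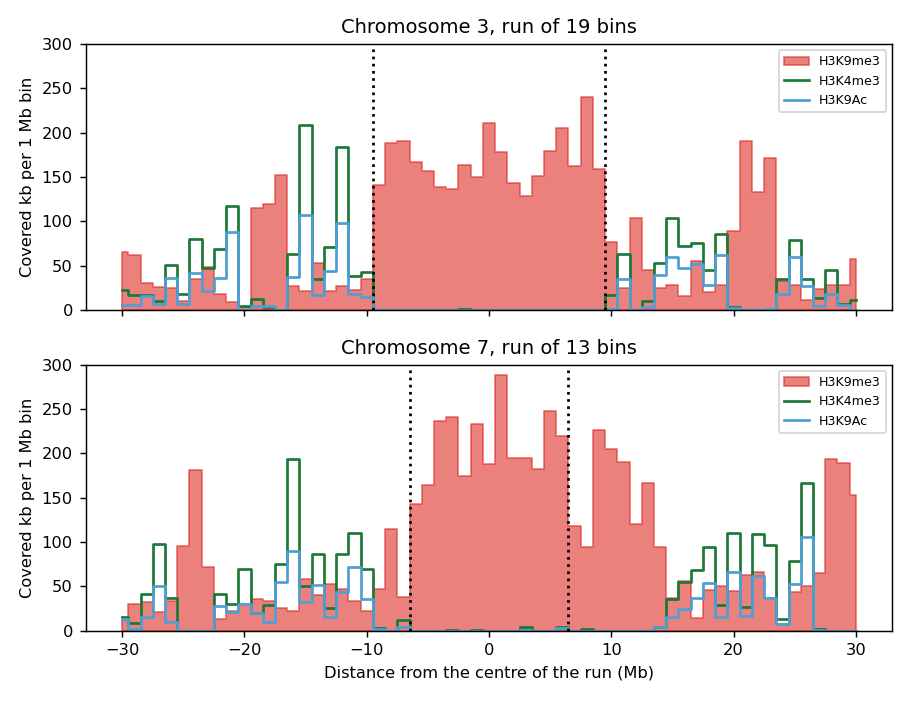
Covered kb per 1 Mb bin (y axis) within 30 Mb of the centre of the 2 longest runs of rich bins (x axis, distance in Mb), on chromosome 3 (top) and chromosome 7 (bottom), for H3K9me3 (filled), H3K4me3 and H3K9Ac (lines); dotted lines mark the ends of the runs. H3K9me3 stays between 129 and 240 kb throughout the run on chromosome 3 while the MOAs stay near 0.

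H3K27me3 went with the strong H3K9me3 peaks. The H3K27me3 list is sparse, with 4484 peaks. Over all bins the rho between the 2 MORs was only 0.0438, and within single chromosomes it ran from -0.184 on chromosome 5 to 0.114 on chromosome 3. It was -0.131 for H3K9me3 peaks with scores under 100 and 0.405 for those of 200 and over. The nearest H3K27me3 peak was a median of 769 kb from the former and 138 kb from the latter.

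Median H3K9me3 coverage changed little with position along the chromosome. Per bin it was 34.5 kb within 5 Mb of an end (75 bins), 39.5 kb at 5 to 10 Mb and 31.0 kb at 10 to 20 Mb. It was 30.3 kb at 20 to 50 Mb, 31.3 kb at 50 to 100 Mb, 37.3 kb at 100 to 200 Mb and 40.7 kb beyond 200 Mb. The quartiles overlapped in every class. Only chromosomes 1 to 4 are long enough for bins beyond 200 Mb, so that class differs in chromosomes as well as in position. In the mean, strong peaks were more numerous at the ends. Their mean number per bin was 3.52 within 5 Mb, 2.69 at 5 to 10 Mb, 1.35 at 100 to 200 Mb and 2.17 beyond 200 Mb. Single bins weigh on these means. The bin from 745000001 to 746000000 on chromosome 1 held 28 strong peaks and that from 526000001 to 527000000 on chromosome 3 held 25. The median over all bins was 1. The first 3 bins of chromosome 8, which held no peak, are among the 75.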

How the data were processed

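Within Galaxy, the authors aligned quality-filtered reads to MonDom5 using Bowtie, reporting the best hit per read, and MACS then called enrichment over the single input library. The submitters' processing notes list CASAVA 1.7, Bowtie 1.1.2 and MACS 1.0.1. The deposited lists give each peak's position and a score (-10 log10 of the p-value from MACS), which grows with library depth and peak width and is ranked only within a list. The H3K9me3 list reaches down to a score of 30, a p of 0.001, and matches in number the looser call in the paper's supplement.

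With Python 3.11.15, numpy 2.4.6, pandas 2.3.3 and scipy 1.17.1, starts were counted from 1, and 2 starts below 0 were set to 0. Other marks were used at a score of at least 50. Incomplete last bins were left out. Functions were tested on simulated intervals. The regions named are the 5 highest scores, widest peaks, clusters with most peaks, richest and poorest bins and largest gaps, and the longest cluster, the runs of bins and the rich bins with H3K4me3 were added after values were seen. No cell type markers could be checked in peak lists. The peaks and groupings were chosen with earlier results of these data known. Intervals for counts treat peaks as independent and cover counting error only.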

Additional observations from a re-analysis of the deposited data

How the results depend on the processing

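For 10 results, 62 alternative values were computed: 31 stayed close to the reported value, 25 moved and 6 reversed. A share was taken as moved outside its exact 95% binomial interval, a count, a distance or the share in the richest bins beyond a factor of 1.5, and rho beyond 0.1, and rho was taken as reversed when its sign changed. The score threshold moved most results. With every deposited peak against a score of at least 100, the number of peaks was 152259 and 24837, gaps of at most 10 kb were 62.8% and 18.3%, and peaks in clusters were 47.7% and 2.15%. The median distance to H3K4me3 was 162 and 21.9 kb and to H3K9Ac 269 and 41.2 kb, and rho of width with score was 0.830 and 0.475. The rank correlation with H3K4me3 was -0.432 and 0.000312 (a reversal in sign only), with H3K9Ac -0.453 and -0.0329, and with H3K27me3 -0.0378 (reversed) and 0.232. Score classes, added after the data were seen, gave rho with H3K4me3 of -0.511, -0.186 and 0.390 (reversed) for scores of 50 to under 100, 100 to under 200, and 200 and over. With H3K9Ac they gave -0.522, -0.211 and 0.358 (reversed), and with H3K27me3 the first and last were -0.131 (reversed) and 0.405. Bins of 5 Mb reversed rho with H3K27me3 to -0.133. Peaks in clusters were 6.52% with a joining gap of 5 kb and 43.4% with 20 kb. Merging peaks within 1000 bases gave 15.2% in clusters and 37.2% of gaps at most 10 kb. Adding chromosome X, and leaving out bins with no peak of any list, moved none of the results for which they were run. No paired analysis was possible because each mark had a single library without replicate numbers. With no read counts, a weak peak cannot be told from one limited by depth. Planned results on sequence and genes were not run, as no genome or annotation of MonDom5 was used.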
